A study of Mus musculus with 6 samples.

Results

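The 10 genes described here encode the core enzymes that remove superoxide and peroxides from cells. They are the glutathione peroxidase genes Gpx1 and Gpx4, the peroxiredoxin genes Prdx1, Prdx2, Prdx3, Prdx5 and Prdx6, the catalase gene Cat and the superoxide dismutase genes Sod1 and Sod2. They were taken by symbol from the 55401 Ensembl gene identifiers of 1 deposited table of gene counts. All 10 were present, and all 10 were among the 18253 genes tested. RNA was sequenced from mouse group 3 innate lymphoid cells (ILC3s), lymphocytes without antigen receptors that guard mucosal surfaces and release interleukin 22. Per the labels, the cells were of wild-type genotype, came from the lamina propria of the small intestine, and had been exposed beforehand to PEox in 3 libraries and to vehicle in the other 3. The protocol text names pups as the source without an age. The labels leave PEox unexplained, and in work on ferroptosis it usually stands for oxidised phosphatidylethanolamine, a peroxidised membrane lipid. The sources used here do not give the dose, duration or route of the exposure.

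Superoxide, which leaks from respiration and is made by NADPH oxidases, is turned into hydrogen peroxide by superoxide dismutases, Sod1 in the cytosol and Sod2 in the mitochondrial matrix. Hydrogen peroxide is then reduced by glutathione peroxidases at the expense of glutathione, by peroxiredoxins mostly at the expense of thioredoxin, or split by catalase in peroxisomes. Gpx4 also reduces peroxides of lipids within membranes, and its loss leads to ferroptosis, an iron-dependent death by lipid peroxidation. Gpx1 and Gpx4 are selenoproteins, enzymes that carry selenocysteine.

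The libraries held between 56252806 and 57532484 counts with PEox and between 59524577 and 66849230 with vehicle, so that a count of 3, the floor used for an absent gene, equals 0.045 to 0.053 CPM (counts scaled to library size, here by total count and before the TMM scaling of the other values). The labels give ILC3s as the cell type, whereas the protocol text describes sorted epithelial cells that carry EpCAM and lack CD45. The 10 ILC3 markers summed to 6037 to 6125 CPM in PEox libraries and 9881 to 10084 CPM in vehicle libraries, and of these 2 were called higher, Kit and Il17f, and 4 lower, Il22 among them. The fall of the sum came from Il22, at 2513 ± 59.4 CPM with PEox and 6724 ± 63.5 CPM with vehicle (SD, n = 3 each). The 12 markers of intestinal epithelium summed to 73.9 to 76.0 CPM and 106 to 119.6 CPM in the same order of groups. Of these, 7 were tested, 3 were called lower, Epcam, Krt8 and Krt18, and none higher. Epcam had 31.9 ± 3.70 CPM with PEox and 52.2 ± 3.53 CPM with vehicle (SD, n = 3 each), whereas Cdx2 and Alpi had no count in any library. The labels do not say whether each library had its own animals. The p-values therefore reflect how far these libraries differ, and that spread may be technical. Fewer cells of a type and less RNA per cell cannot be told apart in such bulk samples.

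The promoters of 4 of the genes are shown because these genes went different ways: Sod1 and Cat were called higher with PEox, Prdx2 was called lower, and its relative Prdx1 missed the threshold. The sequences are those of RefSeq on GRCm38.p6, 5′ to 3′, cut off before the first transcribed base annotated by RefSeq or GENCODE, and 9 of the 10 genes had a window in that table. Capitals mark a match on either strand to TGACNNNGC, the core of the antioxidant response element to which NRF2 binds, where N is any base.
Sod1, chr16:90220512-90220753, plus strand: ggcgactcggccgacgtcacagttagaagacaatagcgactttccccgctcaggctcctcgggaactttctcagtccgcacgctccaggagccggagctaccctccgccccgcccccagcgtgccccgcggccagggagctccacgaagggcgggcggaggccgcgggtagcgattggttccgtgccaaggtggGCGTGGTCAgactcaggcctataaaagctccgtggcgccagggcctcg
Cat, chr2:103485161-103485403, minus strand: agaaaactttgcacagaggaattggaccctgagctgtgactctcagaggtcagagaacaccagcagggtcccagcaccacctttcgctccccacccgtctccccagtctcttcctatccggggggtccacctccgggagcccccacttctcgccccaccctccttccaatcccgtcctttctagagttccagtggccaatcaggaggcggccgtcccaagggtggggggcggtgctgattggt
Prdx1, chr4:116685349-116685543, plus strand: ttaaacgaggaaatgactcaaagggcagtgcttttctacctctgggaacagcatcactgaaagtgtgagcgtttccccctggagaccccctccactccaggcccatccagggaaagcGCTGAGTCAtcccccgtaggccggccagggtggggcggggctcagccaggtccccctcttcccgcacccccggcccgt
Prdx2, chr8:84969372-84969586, plus strand: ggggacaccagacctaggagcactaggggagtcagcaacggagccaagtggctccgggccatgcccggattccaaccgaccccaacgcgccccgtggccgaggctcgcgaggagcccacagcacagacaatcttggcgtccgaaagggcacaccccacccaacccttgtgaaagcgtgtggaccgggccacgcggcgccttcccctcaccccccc
In windows of 250 bases before to 50 after the RefSeq start, this motif occurred in Sod1, from 56 to 48 bases before the start, and in Prdx1, from 133 to 125 bases before it, both times on the opposite strand. It was found in neither Cat nor Prdx2, nor in the windows of Gpx1, Gpx4, Sod2, Prdx5 and Prdx3. Of all 32851 windows in the table, 12.4% held it. The match in Prdx1 overlaps one to TGANTCA, the motif of AP-1 factors, which reads the same on both strands and was present in 7.81% of windows. A second match to TGANTCA lies from 237 to 231 bases before the start of Prdx1. A match describes these letters and is no evidence of binding.

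The PEox and vehicle libraries were compared to ask how the exposure changed the transcripts of these enzymes. Sod1 and Cat rose, while Gpx1, Gpx4, Sod2, Prdx2, Prdx5 and Prdx6 fell, and Prdx1 and Prdx3 did not pass the test. Of the 10 genes, 8 were called by the edgeR quasi-likelihood test at a Benjamini-Hochberg adjusted p under 0.05, 2 higher and 6 lower. Of all tested genes 37.1% were called, 18.3% higher and 18.8% lower. That share includes genes of low level, whereas Prdx3, the lowest of the 10 with vehicle, lay above 83.2% of tested genes in mean CPM. In the fit of the 10743 genes with at least 5 CPM in 3 libraries, 60.6% were called, 3322 higher and 3185 lower. On CPM scaled by TMM (trimmed mean of M-values, an adjustment for library composition) the 3 PEox libraries lay wholly above or wholly below the 3 vehicle libraries for all 10 genes, 3 above and 7 below. The same held for 50.6% of all tested genes, 24.1% above and 26.5% below. When libraries were scaled by total count alone, Prdx3 and Prdx6 overlapped and 8 genes remained apart. The median log2 fold change was -0.21 over the 10 genes and 0.00 over all tested genes.

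Gpx1, the abundant cytosolic peroxidase for hydrogen peroxide, had 583, 542 and 551 CPM in PEox libraries 1 to 3, against 1079, 1024 and 1085 CPM in vehicle libraries 1 to 3. Every PEox library lay far below every vehicle library, and both groups were tight. The log2 fold change was -0.93 ± 0.04 (SE, n = 3 each; edgeR adjusted p = 3.64e-06), the largest fall of the 10 genes in this fit. Gpx4 had 552, 545 and 515 CPM in PEox libraries 1 to 3 and 765, 739.9 and 752 CPM in vehicle libraries 1 to 3. The groups were again apart, by a log2 fold change of -0.49 ± 0.04 (SE, n = 3 each; edgeR adjusted p = 5.8e-05).

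The call of Gpx4 was lost when transcript length and GC content were accounted for together. With the tested genes cut into 4 equal classes by transcript length, the median log2 fold change was -0.42 in the shortest class, up to 1435 bases, and 0.27 in the longest. Gpx4, with a transcript of 995 bases and 60.2% GC, and Gpx1, with 1072 bases and 57.2% GC, lie in the shortest class. By GC content the medians ran from 0.14 in the lowest of 4 classes to -0.10 in the highest, which holds both genes, and length and GC were not removed separately. When a smooth dependence on transcript length and base composition was taken out of every library, Gpx4 stood at -0.02 ± 0.03 (SE, n = 3 each; edgeR adjusted p = 0.659) and was no longer called. Gpx1 was still called lower, at -0.50 ± 0.04 (SE, n = 3 each; edgeR adjusted p = 4.19e-05). Whether these trends arose in the cells or in the libraries was not tested. The copy Gpx4-ps2 had 99.7 ± 2.50 CPM in PEox libraries and 134 ± 2.43 CPM in vehicle libraries (SD, n = 3 each), so reads may be split between it and Gpx4. With its counts added to Gpx4 the log2 fold change of Gpx4 was -0.48, an alternative chosen after seeing the data.

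**Figure D1:**
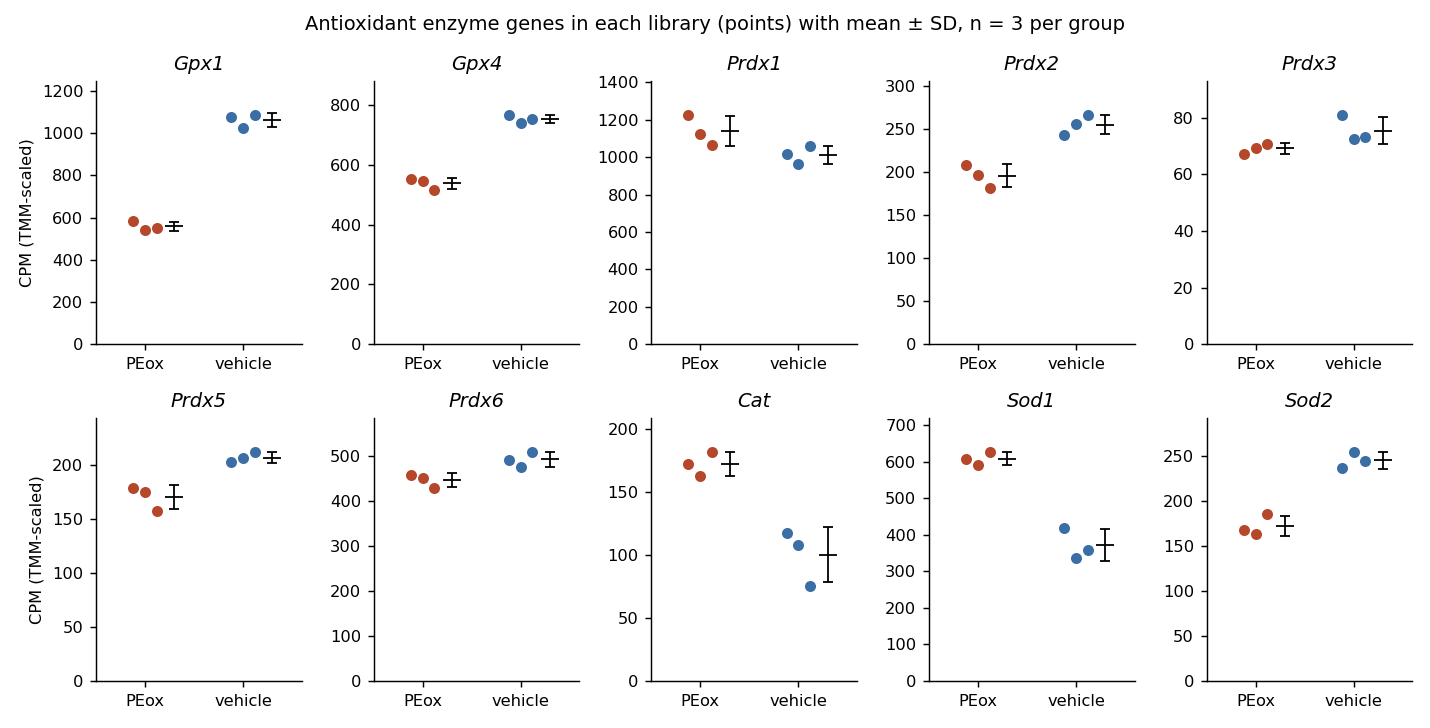
Level of each of the 10 genes in every library, in CPM after TMM scaling on axes that start at 0 and differ between panels, with PEox libraries on the left and vehicle libraries on the right. Points are libraries and the bar beside them is the mean ± SD (n = 3 per group). Gpx1 lies between 542 and 583 CPM with PEox and between 1024 and 1085 CPM with vehicle, and the groups of Prdx1 and Prdx3 lie closest to overlap.

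Together the glutathione peroxidase genes made up 26.9% to 27.0% of the summed CPM of the 10 genes in PEox libraries and 39.6% to 39.7% in vehicle libraries. The 5 peroxiredoxin genes made up 48.1% to 50.6% with PEox and 43.8% to 45.7% with vehicle, although their sum was 2021 ± 115 CPM with PEox and 2044 ± 71.9 CPM with vehicle (SD, n = 3 each), a ratio of 0.989. Superoxide dismutase genes held 18.4% to 20.5% with PEox and 13.0% to 14.1% with vehicle. The sum of all 10 was 4070.0 ± 132 CPM with PEox and 4576 ± 120 CPM with vehicle (SD, n = 3 each), and it carries no test. By total count the 10 genes took 0.417% to 0.441% of a PEox library and 0.423% to 0.443% of a vehicle library, ranges that overlap.

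**Figure D2:**
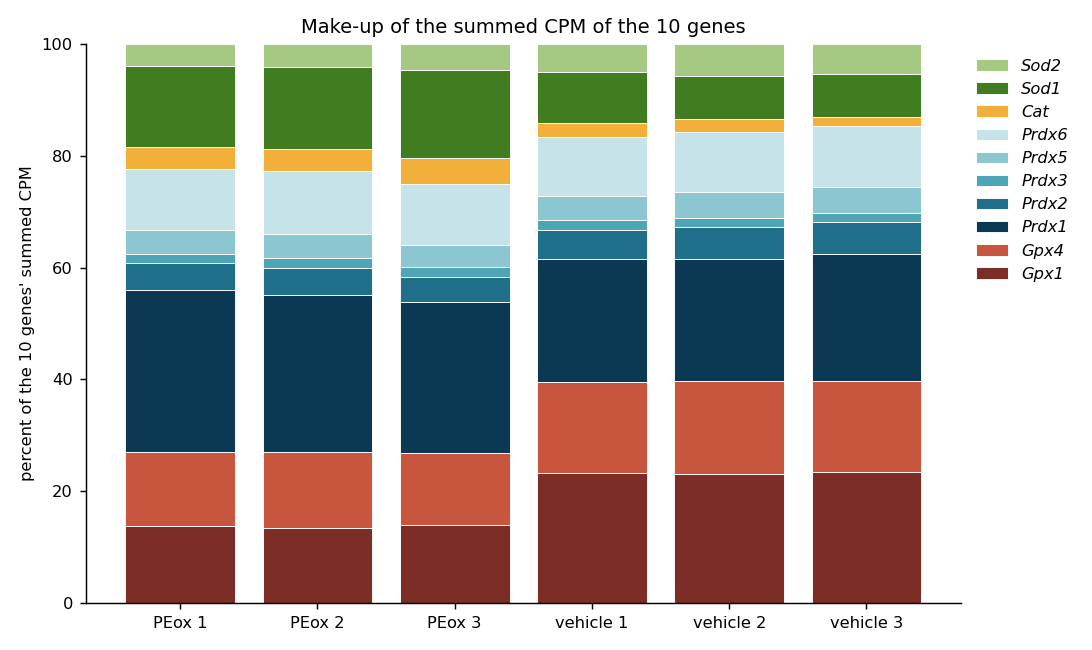
Share of each gene in the summed CPM of the 10 genes, in percent, as 1 stacked bar per library, PEox libraries left and vehicle libraries right. Gpx1 and Gpx4 at the bottom take 26.9% to 27.0% of the bar with PEox and 39.6% to 39.7% with vehicle, and the segment of Sod1 is 14.4% to 15.8% with PEox and 7.59% to 9.02% with vehicle.

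The dismutases moved apart. Sod1, the cytosolic copper and zinc enzyme, had 606, 591 and 627 CPM in PEox libraries 1 to 3, against 419.7, 337 and 359.5 CPM in vehicle libraries 1 to 3. All PEox libraries were higher, with vehicle library 1 nearest to them. Its log2 fold change was 0.71 ± 0.08 (SE, n = 3 each; edgeR adjusted p = 0.000215). Sod1 has the shortest transcript of the 10, at 641 bases, and once the length and GC trend was removed its log2 fold change was 1.26 ± 0.08 (SE, n = 3 each; edgeR adjusted p = 2.13e-05). Scaf4, a neighbour on the opposite strand whose exons share no base with those of Sod1, was also higher, at 51.5 ± 4.18 CPM with PEox and 29.7 ± 0.434 CPM with vehicle (SD, n = 3 each).

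Sod2, the manganese enzyme of the mitochondrial matrix, had 168, 164 and 185 CPM in PEox libraries 1 to 3 and 237, 255 and 245 CPM in vehicle libraries 1 to 3. No PEox library reached a vehicle library. The log2 fold change was -0.51 ± 0.06 (SE, n = 3 each; edgeR adjusted p = 0.000344), and -0.75 ± 0.05 once the length and GC trend was removed (SE, n = 3 each; edgeR adjusted p = 1.8e-05). The longest protein-coding transcript of Sod2, at 5861 bases, was the longest of the 10. By that length its fall ran against the trend of long transcripts to be higher. Sod2 may be read mostly from a shorter transcript, and then neither this reading nor the value with the trend removed would hold as given.

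Catalase, a haem enzyme of peroxisomes, rose. Cat had 172, 163 and 182 CPM in PEox libraries 1 to 3 and 118, 108 and 75.6 CPM in vehicle libraries 1 to 3. The vehicle libraries varied more than those of any other of the 10 genes relative to their mean, and vehicle library 3 was the lowest. The log2 fold change was 0.78 ± 0.15 (SE, n = 3 each; edgeR adjusted p = 0.00366), and it ran from 0.61 to 0.91 in the 6 fits that each omit 1 library.

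Erythroid transcripts were higher in the same libraries, and red cells are rich in catalase, Sod1 and Prdx2 protein. The 11 erythroid markers found, of 12 listed, summed to 5164 to 5844 CPM in PEox libraries and 2792 to 2838 CPM in vehicle libraries. Of these 11, 6 were called higher and none lower, the haemoglobin genes and Alas2 among the 6. Slc4a1, Klf1 and Epb42, which mark red cell precursors, were at most 0.952 CPM in any library. The part of red cell transcripts in the changes of Cat, Sod1 and Prdx2 was not tested.

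Of the 5 peroxiredoxin genes, Prdx2, Prdx5 and Prdx6 fell and none rose. Prdx1, a cytosolic enzyme served by thioredoxin and a textbook target of NRF2, had 1224, 1127 and 1067 CPM in PEox libraries 1 to 3 and 1018, 964 and 1058 CPM in vehicle libraries 1 to 3. PEox library 3 lay just above vehicle library 3. The log2 fold change of 0.17 ± 0.06 (SE, n = 3 each) missed the threshold at an edgeR adjusted p of 0.0532. Prdx1 was called higher by DESeq2 (log2 fold change 0.18, adjusted p = 0.0135), by limma-voom (0.16, adjusted p = 0.0359), with the stricter low count filter (0.16, edgeR adjusted p = 0.0291), with scaling by total count (0.30, edgeR adjusted p = 0.00355) and without PEox library 3 (0.22, edgeR adjusted p = 0.0196). In the other 10 of 15 alternatives it was not called, among them the fit with the length and GC trend removed (0.14, edgeR adjusted p = 0.113) and that with no filter (0.15, edgeR adjusted p = 0.13), and the values without 1 library ran from 0.11 to 0.22.

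Prdx2, the closest cytosolic relative of Prdx1, fell. It had 209, 197 and 182 CPM in PEox libraries 1 to 3 and 244, 256 and 266 CPM in vehicle libraries 1 to 3, with no overlap. The log2 fold change was -0.38 ± 0.06 (SE, n = 3 each; edgeR adjusted p = 0.00197). With the length and GC trend removed it was -0.17 ± 0.06 (SE, n = 3 each; edgeR adjusted p = 0.0545) and no longer passed. Its exons share 173 bases with Junb and 177 with Rnaseh2a on the opposite strand, and without a stated strand setting reads from these stretches cannot be assigned. Junb was higher, at 778 ± 3.39 CPM with PEox and 630.4 ± 9.21 CPM with vehicle (SD, n = 3 each), whereas Rnaseh2a was lower, at 45.5 ± 4.38 CPM with PEox and 89.5 ± 2.01 CPM with vehicle (SD, n = 3 each).

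The mitochondrial peroxiredoxins are encoded by Prdx3, which is confined to that organelle, and Prdx5, which also serves the cytosol and peroxisomes. Prdx3 had 67.2, 69.4 and 70.8 CPM in PEox libraries 1 to 3 and 80.9, 72.4 and 73.3 CPM in vehicle libraries 1 to 3, a gap of the groups that was smaller than the spread within vehicle. It did not pass (log2 fold change -0.13 ± 0.07, SE, n = 3 each; edgeR adjusted p = 0.211), and its sign turned after removal of the length and GC trend (0.05). With scaling by total count it stood at 0.01, a shift shared with the median of all tested genes, which moved to 0.14. Prdx5 had 178, 175 and 158 CPM in PEox libraries 1 to 3 and 202, 206 and 212 CPM in vehicle libraries 1 to 3. It was called lower (log2 fold change -0.28 ± 0.06, SE, n = 3 each; edgeR adjusted p = 0.00668). That call was lost with scaling by total count (-0.14, edgeR adjusted p = 0.0907), and once the length and GC trend was removed the value was 0.09 (edgeR adjusted p = 0.219). Prdx5 shares 409 exonic bases with Trmt112 on the opposite strand, which was itself lower, at a mean of 77.8 CPM with PEox and 105 CPM with vehicle (log2 fold change -0.44, edgeR adjusted p = 0.00713).

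Prdx6, a peroxiredoxin that uses glutathione and can reduce phospholipid peroxides, had 459, 451 and 429 CPM in PEox libraries 1 to 3 and 492, 477 and 509 CPM in vehicle libraries 1 to 3. The groups were apart by a narrow margin. The log2 fold change was -0.14 ± 0.05 (SE, n = 3 each; edgeR adjusted p = 0.0384). The call was lost in 9 of 15 alternatives, among them scaling by total count (-0.01, edgeR adjusted p = 0.933), and without any 1 of the 6 libraries (log2 fold change -0.17 to -0.11). Its copy Prdx6b had 15 counts in vehicle library 3 and none in the other libraries. As the counter is not stated, these counts cannot show whether reads that match both genes were dropped.

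**Figure D3:**
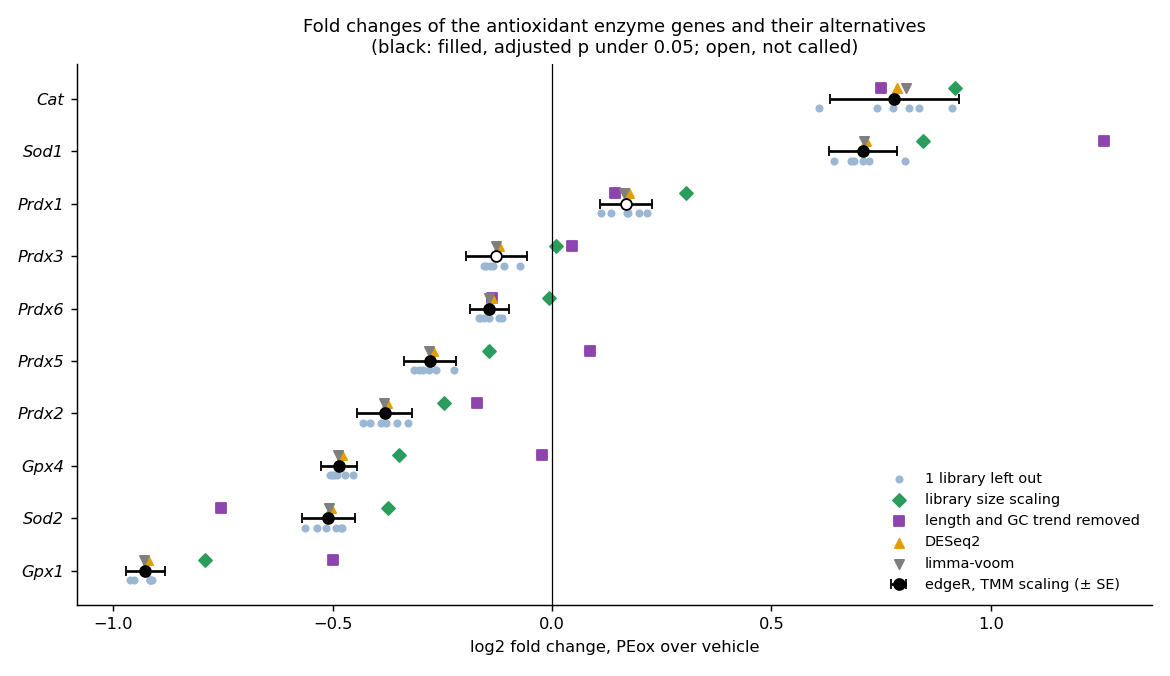
Log2 fold change of each gene, PEox over vehicle, with genes ordered by value. Black circles are the edgeR fit with TMM scaling ± SE, filled where the adjusted p was under 0.05, and the coloured symbols are other settings and fits without 1 library. Once the length and GC trend is removed, Gpx4 reaches the zero line at -0.02, and Prdx3 and Prdx5 cross it at 0.05 and 0.09. Sod1, Cat, Gpx1 and Sod2 keep both their side and their call in all 15 alternatives.

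Scaling by total count moved the median over the tested genes to a log2 fold change of 0.14, which is the size of the shift of the 10 genes under that setting. Against 0, Sod1 (0.85), Cat (0.92), Gpx1 (-0.79), Sod2 (-0.37), Gpx4 (-0.35) and Prdx2 (-0.25) kept their direction and their call there, while the calls of Prdx5 and Prdx6 were lost and Prdx1 was called. With the length and GC trend removed, 5 of the 10 genes were called, 2 higher and 3 lower. Of all tested genes 31.9% were then called, 14.8% higher and 17.1% lower.

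Ratios of counts within a library do not depend on scaling between libraries. Sod2 had 0.277, 0.277 and 0.296 counts for each count of Sod1 in PEox libraries 1 to 3 and 0.564, 0.756 and 0.682 in vehicle libraries 1 to 3. The groups did not overlap, and the mean log2 ratio was -1.82 ± 0.06 with PEox and -0.59 ± 0.22 with vehicle (SD, n = 3 each). That difference of -1.23 had an exact two-sided permutation p of 0.1, which is the smallest p that 3 against 3 libraries allow, and 0.133 after Benjamini-Hochberg adjustment over the 4 pairs compared.

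Gpx4 counts relative to Gpx1 were 0.946, 1.01 and 0.935 in PEox libraries 1 to 3 and 0.709, 0.723 and 0.693 in vehicle libraries 1 to 3. Every PEox library was higher (difference of mean log2 ratios 0.44, exact permutation p = 0.1, adjusted 0.133). The ratio of Prdx1 to Prdx2 was 5.86, 5.72 and 5.87 in PEox libraries 1 to 3 and 4.18, 3.76 and 3.98 in vehicle libraries 1 to 3 (difference 0.55, exact permutation p = 0.1, adjusted 0.133). The ratio of Prdx5 to Prdx3 overlapped, at 2.65, 2.52 and 2.23 in PEox libraries 1 to 3 and 2.50, 2.85 and 2.89 in vehicle libraries 1 to 3 (difference -0.16, exact permutation p = 0.3, adjusted 0.3).

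**Figure D4:**
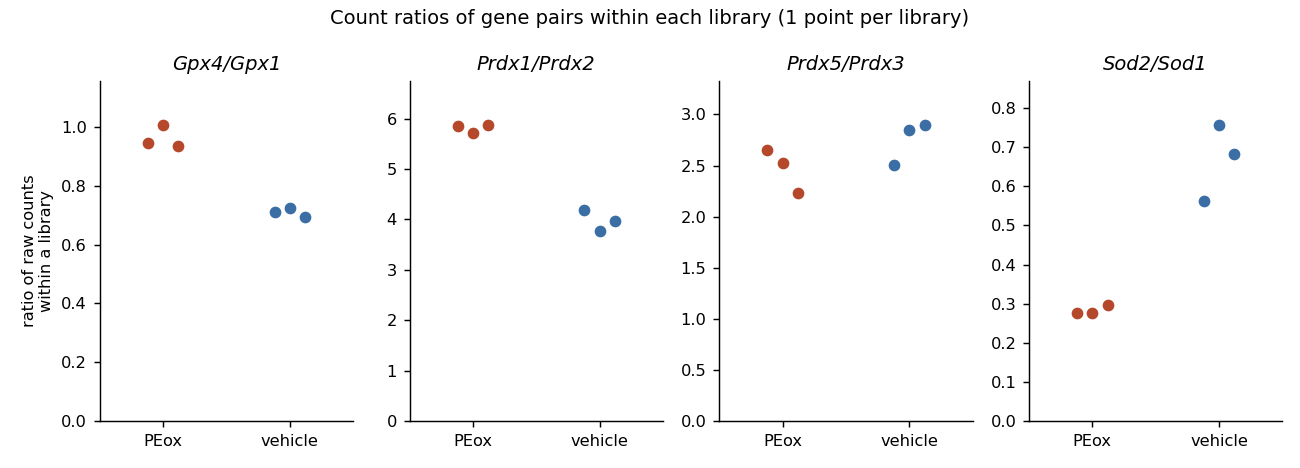
Ratio of the raw counts of 2 genes within each library, 1 point per library, PEox left and vehicle right, on axes that start at 0. Sod2 over Sod1 lies between 0.277 and 0.296 with PEox and between 0.564 and 0.756 with vehicle, and only Prdx5 over Prdx3 has overlapping groups.

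Levels of different genes were set side by side as CPM per kilobase of the longest protein-coding transcript. With PEox, Sod1 stood highest at 949 ± 27.8, followed by Gpx4 at 540.1 ± 19.7, Gpx1 at 521 ± 20.3 and Prdx1 at 496 ± 34.6 CPM per kilobase (SD, n = 3 each). These last 3 overlapped between neighbours. Then came Prdx6 (187 ± 6.39), Prdx5 (135 ± 8.76), Prdx2 (122 ± 8.42), Cat (65.9 ± 3.70), Prdx3 (46.8 ± 1.23) and Sod2 (29.4 ± 1.96 CPM per kilobase; SD, n = 3 each), among which Prdx5 and Prdx2 overlapped.

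With vehicle the order began with Gpx1 at 991 ± 31.3, Gpx4 at 756 ± 12.7, Sod1 at 580.4 ± 66.7 and Prdx1 at 442 ± 20.6 CPM per kilobase (SD, n = 3 each), with no overlap between neighbours. Prdx6 (206 ± 6.81), Prdx5 (164 ± 3.83), Prdx2 (158 ± 7.04), Prdx3 (51.1 ± 3.16), Sod2 (41.9 ± 1.56) and Cat (38.4 ± 8.41 CPM per kilobase; SD, n = 3 each) followed. Prdx5 and Prdx2 overlapped, as did Sod2 and Cat. Sod1 thus ranked 1 with PEox and 3 with vehicle, and Gpx1 ranked 3 with PEox and 1 with vehicle. Without division by length, Prdx1 stood highest with PEox, at 1139 CPM, and Gpx1 with vehicle, at 1063 CPM. A gene read mostly from a shorter transcript than the longest, as may hold for Sod2, would stand higher on the scale per kilobase.

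Of 10 other listed members of the same families and their helpers, 6 were tested, 4 fell and none rose, with a median log2 fold change of -0.58. The share over all tested genes, to be set beside this list and each list below, was 37.1% called, 18.3% higher and 18.8% lower. Prdx4, the peroxiredoxin of the endoplasmic reticulum, had 34.9 ± 3.59 CPM with PEox and 55.9 ± 3.23 CPM with vehicle (SD, n = 3 each; log2 fold change -0.68, edgeR adjusted p = 0.000969). Ccs, the chaperone that gives Sod1 its copper, fell while Sod1 rose, to 51.3 ± 3.62 CPM with PEox, against 71.3 ± 2.43 CPM with vehicle (SD, n = 3 each; log2 fold change -0.47, edgeR adjusted p = 0.00184). The call of Ccs was lost with the length and GC trend removed (-0.05, edgeR adjusted p = 0.75). The low-level genes Gpx3, a secreted enzyme, and Gpx8, of the endoplasmic reticulum, had log2 fold changes of -0.90 and -0.95 (edgeR adjusted p = 0.00558 and 0.00593).

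Among the partners of peroxiredoxins and glutathione peroxidases, genes moved in both directions. Srxn1, sulfiredoxin, which repairs overoxidised peroxiredoxins, rose to 708 ± 11.1 CPM with PEox, against 204 ± 32.3 CPM with vehicle (SD, n = 3 each), and its log2 fold change was 1.79 ± 0.11 (SE; edgeR adjusted p = 9.71e-06). Txnrd1, the cytosolic thioredoxin reductase and itself a selenoprotein, rose by a log2 fold change of 0.96 (674 ± 47.1 CPM with PEox and 347 ± 22.2 CPM with vehicle, SD, n = 3 each; edgeR adjusted p = 2.04e-05). Txn2, the mitochondrial thioredoxin, had a log2 fold change of -0.51 (edgeR adjusted p = 0.000155), and Glrx5, a mitochondrial glutaredoxin of iron-sulfur cluster assembly, one of -0.84 (edgeR adjusted p = 8.4e-06). Of the 18 thioredoxin and glutaredoxin partners, all tested, 4 rose, 7 fell and 7 did not pass, with a median of -0.10. Over all tested genes, 18.3% were called higher and 18.8% lower.

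Genes of glutathione supply had a median log2 fold change of 0.48, and 5 of 11 rose, 2 fell and 4 did not pass. Gclc and Gss, which encode the catalytic subunit of the first enzyme and the second enzyme of glutathione synthesis, rose by log2 fold changes of 1.46 and 0.48 (edgeR adjusted p = 1.23e-06 and 0.00508). Gclm (1.83, edgeR adjusted p = 4.5e-07) and the cystine importer subunit gene Slc3a2 (0.89, edgeR adjusted p = 7.74e-06) were the other named members. Without vehicle library 1 the counts were 4 higher and none lower.

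Further selenoproteins, listed with the genes that make selenoproteins, divided 2 higher, 8 lower and 11 not called, all 21 tested, at a median of -0.23. Across all tested genes, 18.3% were called higher and 18.8% lower. Selenoh had a log2 fold change of -1.32 and fell to 34.9 ± 4.49 CPM with PEox, against 87.1 ± 4.03 CPM with vehicle (SD, n = 3 each; edgeR adjusted p = 3.76e-05). Selenow, a small thiol selenoprotein, fell by 0.90 (edgeR adjusted p = 3e-05) and Selenof, of the endoplasmic reticulum, by 0.37 (edgeR adjusted p = 0.000513), whereas Selenon, which sits in the membrane of that organelle, rose by 1.05 (edgeR adjusted p = 0.000418). With the length and GC trend removed, Selenow lay at -0.35 and Selenoh at -0.86, both still called.

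Other defences against lipid peroxides split, with 2 of 11 higher, 3 lower and 6 not called, at a median of 0.01. Among all tested genes, 18.3% were called higher and 18.8% lower. Nqo1, a quinone reductase, rose by 1.98 in log2 terms (276 ± 10.5 CPM with PEox and 69.9 ± 2.32 CPM with vehicle, SD, n = 3 each; edgeR adjusted p = 4.5e-07), and Aldh3a2, a dehydrogenase of fatty aldehydes, by 1.01 (edgeR adjusted p = 2.12e-05). Akr1b3, aldose reductase, fell by 0.94 (edgeR adjusted p = 4.03e-06), and Dhodh, a mitochondrial enzyme of pyrimidine synthesis that also reduces ubiquinone, fell by 0.48 (edgeR adjusted p = 0.0017).

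Peroxisomal genes, the setting in which catalase works, had a median of 0.22, and 5 of 18 rose, 2 fell and 11 did not pass. The share called in either direction was close to the 37.1% of all tested genes. Pex5, the receptor that carries catalase and other matrix proteins into peroxisomes, rose to 60.9 ± 8.30 CPM with PEox, against 27.9 ± 1.98 CPM with vehicle (SD, n = 3 each; log2 fold change 1.13, edgeR adjusted p = 0.000171). Abcd3, a membrane transporter, rose by 1.22 and Pex6, which helps to recycle the receptor, by 0.84 in log2 terms (edgeR adjusted p = 0.000211 and 0.00127). Pex16, of membrane assembly, fell by 0.50 (edgeR adjusted p = 0.000919), a call lost after removal of the length and GC trend (-0.17, edgeR adjusted p = 0.146).

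Subunits of superoxide sources were lower, 6 of 11 tested, with none higher and a median of -0.47. Cyba, the membrane subunit of NADPH oxidases, had 452 ± 2.82 CPM with PEox and 1005 ± 9.44 CPM with vehicle (SD, n = 3 each; log2 fold change -1.15, edgeR adjusted p = 5.69e-07), and -0.60 after removal of the length and GC trend. Rac2, Ncf4 and Rac1, which activate the oxidase, fell by 0.68, by 0.73 and by 0.43 (edgeR adjusted p = 6.65e-06, 0.000189 and 0.000769). Markers of other immune cells, some of which also use this oxidase, were lower too. The 12 myeloid markers summed to 106 to 154 CPM in PEox libraries and 214 to 222 CPM in vehicle libraries, and 5 were called lower and none higher. The 8 markers of B and plasma cells summed to 41.5 to 46.8 CPM with PEox and 279 to 299 CPM with vehicle, all 8 called lower. The 8 of ILC1 and natural killer cells summed to 84.3 to 88.5 CPM with PEox and 308 to 322 CPM with vehicle, 6 called lower and none higher. Mast cell and basophil markers summed to 7.27 to 15.5 CPM with PEox and 47.0 to 47.7 CPM with vehicle, 4 of 8 called lower and none higher. T cell markers summed to 314 to 347 CPM with PEox and 463 to 489.7 CPM with vehicle, 6 of 8 called lower and 1 higher. Most of that sum was Trbc1, at a mean of 284 CPM with PEox and 369 CPM with vehicle. Cd3e had 2.61 CPM with PEox and 7.79 CPM with vehicle. The part of these cells in the result was not tested.

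**Figure D5:**
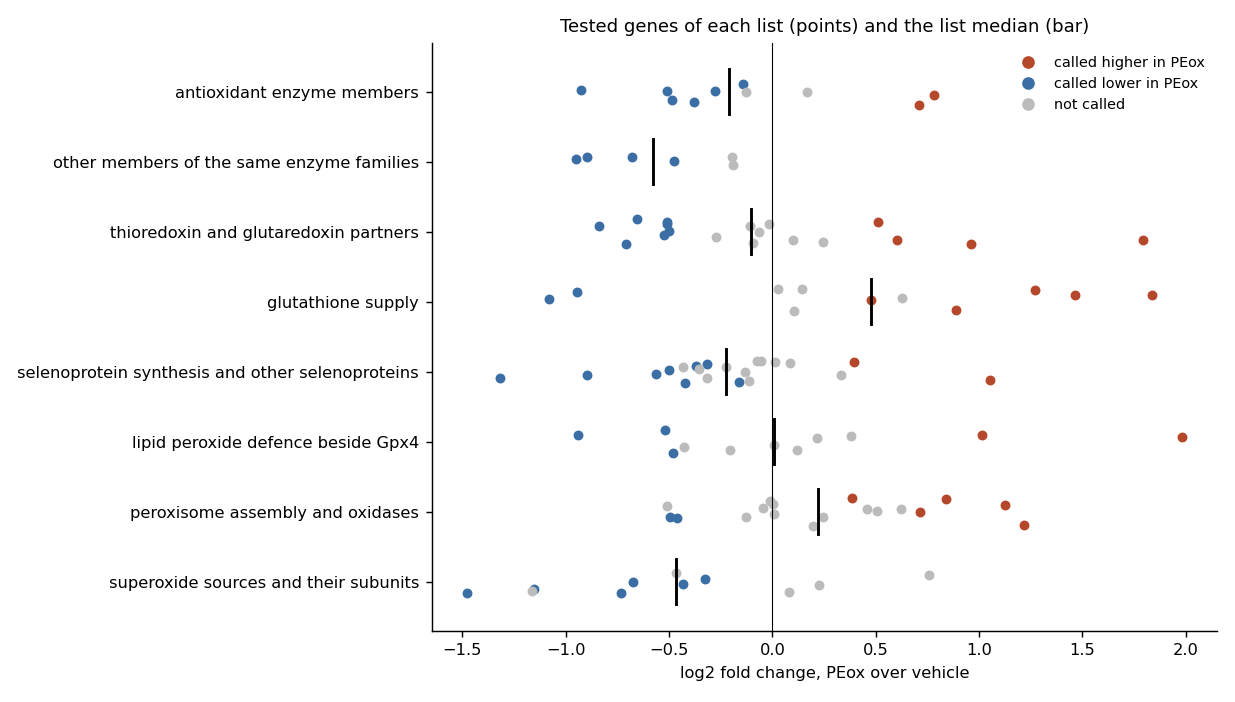
Log2 fold change, PEox over vehicle, of every tested gene in the list of the 10 antioxidant enzymes (top row) and in 7 lists of related genes, 1 point per gene, coloured by call at an edgeR adjusted p under 0.05. Vertical bars are list medians, -0.21 for the 10 genes and from -0.58 for other members of the same families to 0.48 for glutathione supply, beside a median of 0.00 over all tested genes.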

How the data were processed

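RNA-seq libraries from 3 PEox and 3 vehicle samples were read as gene counts from 1 deposited table, left unnormalized by the authors. Per the labels' protocols, reads were 150 bp pairs from a NovaSeq instrument, cleaned with fastp and aligned with HISAT2 2.0.5, and edgeR 3.22.5 is listed in the submitters' processing notes. Counter, genome build, annotation and strand setting are not given in the sources used here. Symbols were found for 55141 of 55401 identifiers, and the other rows held at most 0.0191% of a library's counts.

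Counts were fitted in R 4.3.3 with edgeR 4.0.16 (filterByExpr, TMM, robust quasi-likelihood test, group as the single term), with p-values adjusted over all 18253 genes by the Benjamini-Hochberg method at 0.05. The TMM factors were 0.951 to 1.05, and SE is the log2 fold change over the root of F. Alternatives used DESeq2 1.42.0, limma 3.58.1, RLE or total count scaling, no filter or at least 5 CPM in 3 libraries, replicate blocks, each library left out, and a loess trend (span 0.5) on length and GC of GENCODE M21 transcripts, which covered 99.9% of tested genes. Named genes were the 10 members and up to 4 members of each other list with the smallest p. For Gpx1 and Gpx4, the 3 genes nearest in profile were also taken. Genes that overlap or copy a member were named after their values were seen. The members and lists were chosen with earlier results of these data known. Within groups, library pairs differed by more than sampling noise (chi-square per gene 15.6 to 35.4), so each was kept as 1 replicate. Counting floors cover counting error only. The procedure was run on simulated counts that varied less between replicates than these data, whose common biological coefficient of variation was 34.5%. That run therefore gives no error rates for these data.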

Additional observations from a re-analysis of the deposited data

How the results depend on the processing

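Cat, Sod1, Gpx1 and Sod2 kept their direction and their call in all 15 alternatives. Over the 10 genes and these alternatives, 130 of 150 values kept direction and side of the threshold, 12 lost the call, 5 gained it and 3 changed sign. The sign changes were Prdx3 with total count scaling (0.010) and after removal of the length and GC trend (0.047), and Prdx5 after that removal (0.088). Total count scaling moved the median of all tested genes to 0.14, so the first of these is a shift shared by all genes. With the trend removed 5 of the 10 genes were called. Gene by gene, the causes were not tested. Leaving out each library in turn gave 7 to 8 of the 10 called, 5282 to 6577 of all genes, 4 to 7 in glutathione supply and 6 to 10 peroxisomal genes. Of the peroxisomal genes, 11 were called with at least 5 CPM in 3 libraries and with DESeq2, the first testing fewer genes.

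No pairing by the replicate numbers of the titles was seen: deviations of same-numbered libraries correlated at 0.00541, 0.0135 and -0.00583. Taken over all tested genes, those with few counts included, these values cannot show whether same-numbered libraries shared an animal or day. With the replicate block 6159 genes and 7 of the 10 were called, and Prdx6 was the gene lost (edgeR adjusted p = 0.0767). In the same block the exact sign-flip p of the count ratios was 0.25 for Sod2/Sod1 (-1.23), Gpx4/Gpx1 (0.44) and Prdx1/Prdx2 (0.55), the smallest p that 3 pairs allow, and 0.5 for Prdx5/Prdx3 (-0.16). Scaling by total count gave 61.9% of calls higher, against 49.3% with TMM. Depth did not limit the 10 genes, the lowest of which had 3956 counts in a library.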

Other observations

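Over the 6 libraries, the genes whose centred log2 CPM profiles lay nearest to that of Gpx1, of 9803 candidates with at least 5 CPM, were Mrps14, Nt5c3b and Pfdn1, at root mean square distances of 0.02, 0.03 and 0.03. Mrps14 had 94.5 CPM with PEox and 178 CPM with vehicle (log2 fold change -0.92, edgeR adjusted p = 8.75e-06). Nearest to Gpx4 were Ube2n, Hnrnpa2b1 and Sae1, each at a distance of 0.02, with log2 fold changes of -0.46, -0.47 and -0.49. As these genes were picked by profile over the same libraries, fold changes close to those of Gpx1 and Gpx4 follow from the choice. After removal of the length and GC trend these lay at -0.64, -0.38 and -0.34, while Gpx4 lay at -0.02, and Gpx1 lay at -0.50, beside -1.05 for Mrps14, -0.69 for Nt5c3b and -0.59 for Pfdn1. The likeness in profile thus did not extend to that setting for Gpx4, nor for Mrps14 and Gpx1.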
